A study of Homo sapiens with 2 samples.

Results

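NB4 cells, an established human line from acute promyelocytic leukemia, carry PML-RARA, a fusion of the nuclear body protein PML with the retinoic acid receptor RARA. Under no stated treatment they were profiled with a PML-RARA antibody by CUT&Tag, in which a transposase held by the antibody cuts sequencing adapters into nearby chromatin. The authors merged 2 replicates into 1 peak list with the peak caller SEACR on the build hg19, and this 1 group, without any control library, makes up the data analysed here; no label tells if the replicates came from separate cultures. The stretch of chromosome 11 from 60 to 72 Mb, which takes in bands 11q12.2 to 11q13.4, was chosen on a measured value, the density of peaks in this list. Its members are the 504 peaks of chromosome 11 with a midpoint in that stretch, of 1276 peaks on the chromosome and 20085 in the list. Each peak has a total signal, taken as the sum of coverage along its length, and a maximum signal, its highest coverage. The list has no value per replicate and the sequencing depth is unknown, so values below carry no replicate error and no difference was tested.

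RARA is a nuclear receptor that pairs with RXR on repeats of a short hexamer in DNA and switches from repression to activation when retinoic acid binds. PML-RARA keeps the DNA-binding part of RARA and represses many of its sites, which blocks the maturation of promyelocytes. The stretch of the long arm of chromosome 11 that the block covers is a gene-rich region. It holds the genes of the nuclear long noncoding RNAs NEAT1, the scaffold of paraspeckles, and MALAT1, an abundant RNA of nuclear speckles. It also holds those of RELA, a subunit of NF-kappaB, MEN1, the tumour suppressor menin, and CCND1, a D-type cyclin.

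The promoter sequences of MALAT1 are shown because the interval of NEAT1 and MALAT1, described below, was set with the choice of the block. NEAT1 is named only. They come from RefSeq on GRCh38.p14, at chr11:65497488-65497787 and chr11:65498795-65499094 on the plus strand. Each begins 250 bases before an annotated start and ends 50 bases after it, and these positions are not comparable with the hg19 positions of the peaks. Capitals mark the GC box CCGCCC or its reverse complement.
MALAT1 promoter 1: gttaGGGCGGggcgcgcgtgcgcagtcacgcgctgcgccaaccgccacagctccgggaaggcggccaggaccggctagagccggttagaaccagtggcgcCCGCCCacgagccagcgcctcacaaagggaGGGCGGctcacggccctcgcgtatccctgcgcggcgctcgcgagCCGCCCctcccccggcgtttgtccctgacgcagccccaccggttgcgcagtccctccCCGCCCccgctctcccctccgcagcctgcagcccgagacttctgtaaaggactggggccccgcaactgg
MALAT1 promoter 2: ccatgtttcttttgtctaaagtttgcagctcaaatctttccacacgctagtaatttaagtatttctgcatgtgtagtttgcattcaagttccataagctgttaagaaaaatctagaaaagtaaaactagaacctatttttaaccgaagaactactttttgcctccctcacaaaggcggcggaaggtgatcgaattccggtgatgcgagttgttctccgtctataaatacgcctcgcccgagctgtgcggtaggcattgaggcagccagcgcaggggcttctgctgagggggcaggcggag
The sequence of promoter 1 held 5 GC boxes, 37 CpG dinucleotides and 73.7% G and C. Promoter 2 held 0 GC boxes, 14 CpG dinucleotides and 46% G and C. Of the 35116 promoters in the table, which have the same length, 45.0% held a GC box. A hexamer of the retinoid receptor type, searched as AGGTCA or GGGTCA or AGTTCA or GGTTCA on both strands, was in neither sequence and in 38.6% of all promoters. A match or its lack describes only these letters.

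Peaks in the block stood at 42 per Mb, against 6.28 per Mb in the rest of chromosome 11. The block makes up 8.89% of the length of the chromosome and held 39.5% of its peaks, 46.5% of its covered length and 49.2% of its summed total signal. Peaks covered 6.59% of the bases of the block and 0.739% of those of the rest. Density chose the block, so these ratios, 6.69-fold for peaks per Mb and 8.91-fold for coverage, are a description of the choice. Of 5535 windows of the same 12 Mb width, set every 0.5 Mb over chromosomes 1 to 22 and X, 28 held more peaks than the block. These lay on chromosome 19 (21 windows) and on chromosome 11 itself (7 windows, each of which overlaps the block), and the median window held 41 peaks.

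**Figure D1:**
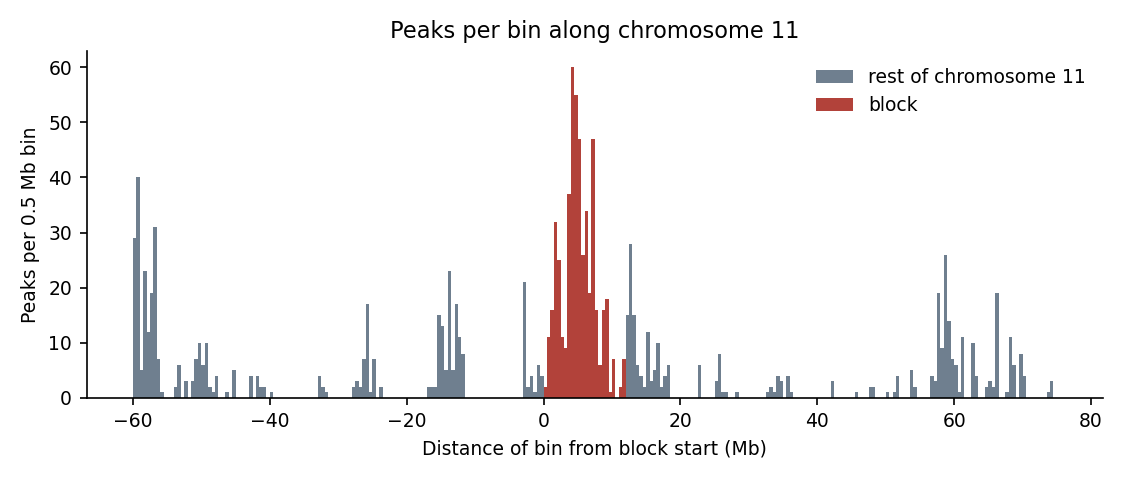
Peaks per 0.5 Mb bin along chromosome 11, plotted by distance in Mb from the start of the block; bars are counts in the 1 merged list, the block in red and the rest in grey. The highest bar of the block reaches 60 peaks and the highest of the rest, at the tip of the short arm, reaches 40.

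The density was uneven inside the block. Its 24 bins of 0.5 Mb held between 0 and 60 peaks, with a median of 16, while the 246 bins of the rest had a median of 0 and 133 of them (54.1%) had none. The densest bins lay from 64 to 64.5 Mb (60 peaks), from 64.5 to 65 Mb (55 peaks), and from 65 to 65.5 Mb and 67 to 67.5 Mb (47 peaks each). These 4 bins together held 209 peaks, 41.5% of the block, and 47.4% of its summed signal. In the bin from 64 to 64.5 Mb peaks covered 21.8% of all bases, and in that from 67 to 67.5 Mb 20.1%.

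Both ends of the block had thin bins. The bin from 60 to 60.5 Mb held 2 peaks, that from 69.5 to 70 Mb 1 peak of total 4341, that from 70.5 to 71 Mb none, and that from 71 to 71.5 Mb 2. Among these at the far end, the bins from 70 to 70.5 Mb and from 71.5 to 72 Mb held 7 peaks each, with sums of 242178 and 138170. The first peak inside, at 60145779 to 60146153, had a total of 3455, and the last before the edge, at 59961160 to 59961744, had 6926. At the far edge the last peak inside, at 71932528 to 71935720, had a total of 49043 and the first outside, at 72145212 to 72145825, had 7774. The far edge does not end the dense part of the long arm: the 2 Mb after it held 64 peaks (32 per Mb), and the 2 Mb before the near edge held 15 (7.5 per Mb). The 12 Mb window of chromosome 11 with the most peaks ran from 61 to 73 Mb and held 534.

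More peaks in a bin did not go with a higher median total per peak. Over the 20 bins with at least 3 peaks, the median total per peak ranged from 3835 (68 to 68.5 Mb, 6 peaks) to 17161 (71.5 to 72 Mb, 7 peaks), and Spearman's rho with the number of peaks was 0.0271. With the median peak length rho was 0.579. No rho was taken for the strongest peak of each bin. Its total was 119952 to 241453 in the 4 densest bins, 257794 in the bin of 18 peaks from 69 to 69.5 Mb, and 24645 from 68 to 68.5 Mb. Summed signal followed the number of peaks over all 24 bins (rho 0.941), which share 1 list and 1 threshold, so these values are descriptions.

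Peaks of the block were gathered into long runs, where a run is a series of peaks each no more than 10 kb from the next. In runs of at least 3 peaks lay 356 of the 504 peaks (70.6%), beside 342 of 772 (44.3%) in the rest and 44.0% of all peaks on chromosomes 1 to 22 and X; density chose the block, so nothing is read from this difference. The block held 58 such runs, which carried 78.2% of its summed signal, and 14 runs of 8 or more peaks with 182 peaks (36.1%). The rest of the chromosome had 9 runs of that size with 97 peaks (12.6%), the longest with 15 peaks near the tip of the short arm at 793689 to 848946. Alone, with no neighbour within 10 kb, stood 86 peaks of the block (17.1%). The shares of all listed peaks that lie in runs of 8 or more, or alone, were not counted. Since density chose the block, nothing is read from these shares either.

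The longest run lay in 11q13.1 at 64051555 to 64139176, where 20 peaks covered 48.6% of 87.6 kb with a summed signal of 560765. The runs at 63971804 to 64039763 and at 64599050 to 64663367, both in 11q13.1, had 18 peaks each, with summed signals of 472179 and 447295. In 11q13.2 the run at 67138169 to 67210647 had 16 peaks and a sum of 301777, and in 11q13.1 that at 64376090 to 64429139 had 15 peaks and 198390. These runs differed in how the signal was spread. In the run of 15 peaks the strongest peak held 15.8% of the sum, and in the 8-peak run at 64506627 to 64532288 a single peak held 86.9% of 277718.

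Peaks in runs had a greater median length than lone peaks and no higher median maximum. In the block the median length was 1128 bp in runs of at least 3 and 877.5 bp for lone peaks, and the median maximum was 22 in the former and 24 in the latter. The median total was 8143 against 7508. In the rest of the chromosome the median length was 1012 bp in runs and 819 bp alone, and the median total 6860 and 6244. Some peaks lay very close together: 197 peaks of the block (39.1%) had a neighbour within 1 kb, beside 26.3% in the rest. The share of all listed peaks with such a neighbour was not counted. Density chose the block, so nothing is read from the difference between block and rest. Whether such peaks are pieces of 1 broad stretch was not tested, since the signal between them is not listed. Joining them left 390 stretches, the longest of 25.3 kb in 5 pieces at 67033039 to 67058359 with a total of 479657.

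**Figure D2:**
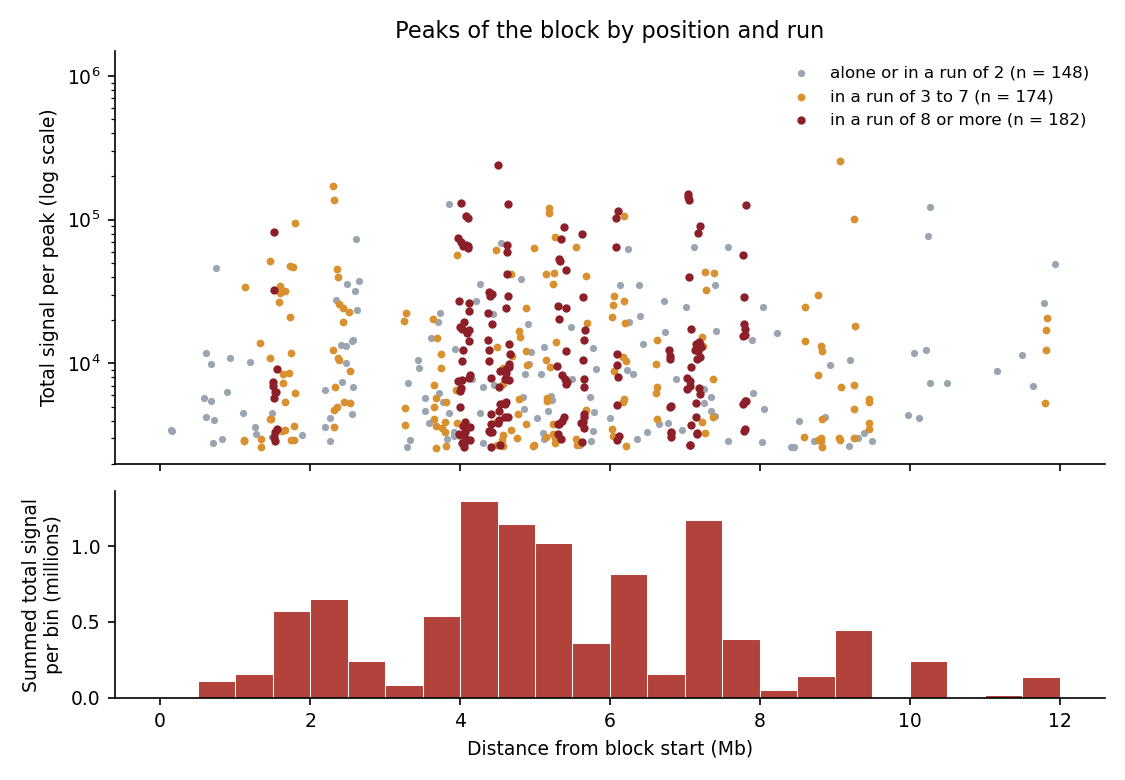
Upper panel, total signal on a log scale of each of the 504 peaks against distance in Mb from the start of the block, coloured by the size of the run it belongs to; lower panel, total signal summed per 0.5 Mb bin, as labelled. Peaks in runs of 8 or more (n = 182) lie at most 7.82 Mb from the start, and the highest bin sum is 1296260.

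The middle of the distribution of peak strength was close to that of the rest, and the upper part was not. The median total signal was 7737 in the block (interquartile range 3921 to 19071) and 6583 in the rest (3931 to 15135), a ratio of 1.18. The median maximum was 22 in both (interquartile range 13 to 43 in the block and 14 to 39 in the rest). The median length was 1034 bp in the block (750 to 1815 bp) and 918 bp in the rest (677 to 1332 bp). Total signal per base had the opposite order, with a median of 7.11 in the block and 7.72 in the rest. At the 90th percentile the total was 50554 against 29600, the maximum 91.7 against 67 and the length 3108 against 2095 bp.

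Long peaks made up a larger share of the block than of the rest. Peaks of at least 4 kb numbered 33 in the block (6.55%) and 14 in the rest (1.81%), where 2.13% of all listed peaks were that long, and they carried 34.9% of the summed signal of the block and 12.96% of that of the rest. By total signal 84 peaks of the block (16.7%) were in the top 10% of the list, a class that holds 10.0% of all listed peaks by definition, and 77 of the rest (9.97%) were. By maximum signal 76 peaks of the block (15.1%) and 77 of the rest (9.97%) reached the level of the top 10%, which with ties held 10.3% of the list. Total signal rose with length in both sets (Spearman's rho 0.850 over the 504 peaks of the block and 0.802 over the 772 of the rest); the total is a sum over the length, so the measures are not independent.

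**Figure D3:**
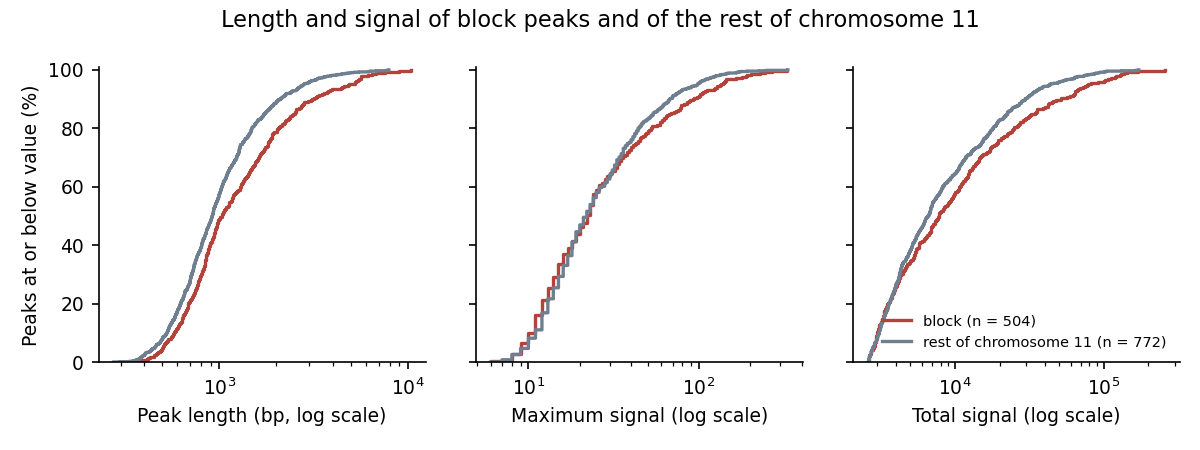
Percentage of peaks at or below each length (bp), maximum signal and total signal, all on log scales, for the 504 peaks of the block (red) and the 772 of the rest of chromosome 11 (grey). The curves for the maximum meet at the shared median of 22, and at the 90th percentile the block lies to the right in all panels.

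By total signal the strongest site of the block was in 11q13.3 at 69061292 to 69070412. This peak of 9120 bp had a total of 257794 (rank 32 of the list) and a maximum of 308, and it stood in a bin whose median peak had a total of 4302. The next lay in 11q13.1 at 64508827 to 64514452 with a total of 241453 (rank 39) and a maximum of 243. In 11q12.3 the peak at 62308114 to 62315647 had 171286 (rank 81) and a maximum of 125. These 3 of the 504 members were among the 100 strongest of the 20085 listed peaks. Among the 1000 strongest of the 20085 were 52 of the 504 members, beside 35 of the 772 peaks of the rest. The strongest peak of the rest, with 172171, lay just past the far edge at 72523568 to 72528007 in 11q13.4.

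Of the next 7 sites by total, 3 stood in 1 run of 11q13.2, at 67034216 to 67041838 (total 151270), 67042056 to 67046878 (142962) and 67053014 to 67058359 (137340). Their run of 13 peaks, at 67030084 to 67085783, summed to 536792, which is 45.8% of the signal of its bin. One lay in 11q12.3 at 62320562 to 62325176 (total 138169, maximum 243), near the site of that band named above and in the same run. The other 3 lay in 11q13.1, at 64005032 to 64011484 (130241), 64641866 to 64647505 (129269) and 63854885 to 63863855 (128282), and the first and second of these belong to the runs of 18. The 10 strongest sites held 16.7% of the summed signal of the block, and the nearest other peak lay 0.218 to 1.25 kb from each.

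The tallest sites were partly others, since 4 peaks were in the top 10 of the block by both measures. The highest maximum, 330, belonged to a peak of 2563 bp at 64101935 to 64104498 in the longest run (total 103096). In 11q13.2 the peak at 66187467 to 66192942 reached 269, and in 11q12.3 that at 61792077 to 61793883 reached 232 over 1806 bp. Some tall sites were narrow and alone: the peak at 64545746 to 64546954 reached 191 and that at 64808126 to 64809069 reached 201 over 943 bp, both in 11q13.1 with no neighbour within 10 kb. At 65183280 to 65187650, next to the interval of NEAT1, a peak reached 198.

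The interval of NEAT1 and MALAT1, from 65.19 to 65.28 Mb, overlapped 13 peaks that summed to 325370. This is 2.58% of the peaks and 3.33% of the signal of the block in 0.75% of its length. Windows of the same 90 kb set every 10 kb through the block had a median of 2 peaks and at most 22, and 5.12% of them held more peaks than the interval. The strongest peak of the interval, at 65188675 to 65195162, crossed its near edge, the side of NEAT1 in the gene order of GRCh38, with a total of 119952 (rank 181) and a maximum of 96. A peak of total 111598 and maximum 198 at 65183280 to 65187650 lay just before it, outside the interval, in the same run of 3. Both are long, at 6487 and 4370 bp, and strong.

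Between that end and the side of MALAT1 the signal was mostly low. The peaks at 65213526 to 65214713 and at 65222211 to 65223053 had totals of 5952 and 5527, under the median of the block. A site at 65243746 to 65245605 then had 35579. The other strong group was a run of 6 at 65257281 to 65275504. In it the peak at 65264042 to 65266186 had a total of 76331, a maximum of 145 and the highest signal per base of the interval (35.6). The peak at 65257281 to 65260879 had 42374, and the last one, at 65274220 to 65275504, 14140. Of the 13 peaks, 7 had totals under the block median, and the strongest 2 held 60.3% of the sum. In the GRCh38 order the microRNA gene MIR612 and the long noncoding genes ENEMAL and LINC02736 come after NEAT1 and before MALAT1. The order gives no gene ends, so it does not tell if any of them overlaps NEAT1 or MALAT1. Which peak lies at which start was not measured.

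The run that follows the interval, at 65290367 to 65366265, held 12 peaks with a sum of 259717 and spans the gene KCNK7, of a potassium channel of the tandem-pore family, at 65360325 to 65363467. The strongest peaks of this run, at 65340632 to 65346351 (total 73904) and 65318411 to 65323939 (53490), had maxima of 61 and 35 and a signal per base of 12.9 and 9.68. The next, at 65337122 to 65339884, had a total of 51202, a maximum of 99 and 18.5 per base.

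**Figure D4:**
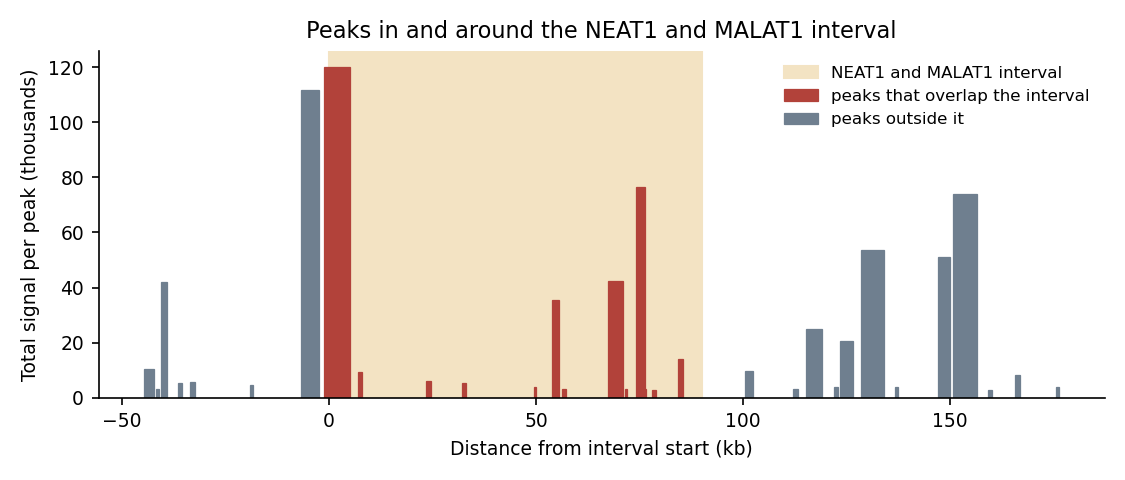
Total signal, scaled as labelled, of each peak (bar, drawn to its length) against distance in kb from the start of the NEAT1 and MALAT1 interval, which is shaded; red bars overlap the interval and grey bars do not. The highest bars stand at the start of the interval (119952) with a grey neighbour (111598), and the next highest of the interval, 76331, lies at 74.0 to 76.2 kb.

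Gene models were at hand for 4 genes of the block, from an example annotation that names no build, so distances rest on the assumption that it is hg19. CTTN encodes cortactin, which binds branched actin, and runs over 18 exons on the plus strand from 70244634 to 70282681 in 11q13.3. A peak at 70243608 to 70246731 lay over its transcription start site (TSS) and first exon, with a total of 77574 and a maximum of 77. The stronger peak lay inside the gene, at 70266076 to 70271563, from 21.4 to 26.9 kb past the TSS and over exons 10 to 13, with a total of 121756 (rank 175) and a maximum of 170. A small peak of total 7325 stood in an intron between them. After the exonic peak none was listed for 224.5 kb, a gap that begins inside CTTN, and the next gene in the GRCh38 order is SHANK2, a synaptic scaffold.

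KCNK4, also a potassium channel gene, lies at 64059469 to 64067503 on the plus strand inside the longest run, yet its own peaks were weak. The nearest to its TSS, at 64060262 to 64060833 over exon 2, was 793 bp away with a total of 3334 and a maximum of 13. Another at 64066670 to 64067739, over the last exon, had 3921. Within 20 kb of the gene the strong peaks lay past it. One at 64071433 to 64074993, 3930 bp beyond its end, had a total of 106787 and a maximum of 133. One at 64082236 to 64088406 had 67145. Before the gene and just beyond that distance, a peak in a run of 18 had a total of 66002 and a maximum of 128. In the GRCh38 order the coding genes that follow KCNK4 are CATSPERZ, ESRRA, an orphan nuclear receptor of energy metabolism, TRMT112, PRDX5, a peroxiredoxin, and CCDC88B; their hg19 positions were not used here.

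**Figure D5:**
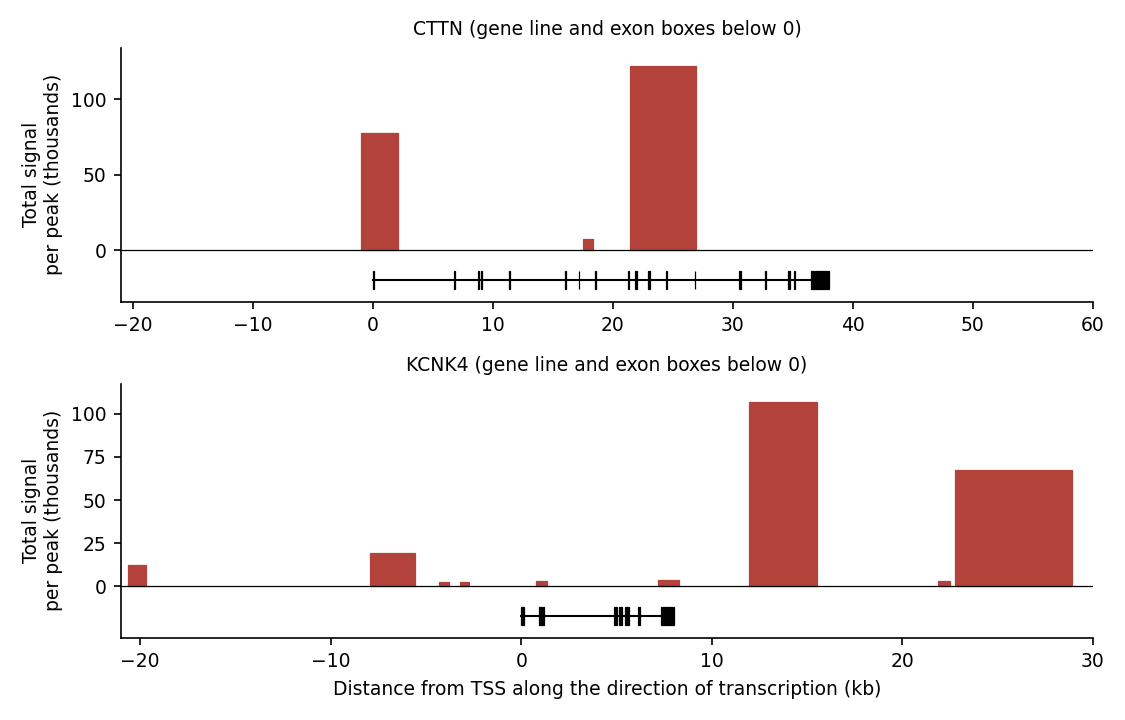
Total signal, scaled as labelled, of the peaks (bars, drawn to their length) within 20 kb of CTTN (upper panel) and KCNK4 (lower panel) against distance in kb from the TSS; the line below 0 is the gene and the boxes on it are exons. CTTN has 1 bar over its TSS (77574) and a higher one inside the gene (121756). Of the bars drawn beside KCNK4, the high ones lie past the end of the gene. A peak of total 66002 before KCNK4 lies just beyond the 20 kb and is not drawn.

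The remaining models had weak peaks near the TSS. SYT7 encodes a synaptotagmin of exocytosis and lies on the minus strand at 61281187 to 61348344 in 11q12.2. Its nearest peak, 1524 bp inside the gene at 61346135 to 61346820, had a total of 2632, and its strongest, at 61334356 to 61335726 in an intron, had 13782. For KCNK7, on the minus strand, the nearest peak was 1985 bp upstream of the TSS at 65365452 to 65366265, with a total of 3991.

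The 4 bands that lie whole inside the block differed from each other. Band 11q13.1 held 227 peaks in 2.5 Mb, or 2.29 per protein-coding gene of the GRCh38 table (99 genes), with a median total of 7738. Band 11q13.2 held 120 peaks and 71 genes (1.69 per gene, median total 9820), and 11q12.3 held 54 peaks and 52 genes (1.04 per gene, median total 10764). Band 11q13.3 held 43 peaks and 19 genes (2.26 per gene) with the lowest median total, 4341, although the strongest site of the block lay there. In these bands together there were 1.84 peaks per coding gene at 27.7 genes per Mb. In the 28 bands of the chromosome outside the block there were 0.737 per coding gene at 8.11 genes per Mb, or 0.885 per gene with the olfactory receptor genes left out. Single bands outside ranged from 0 per gene, as in 11p14.3, to 1.55 in 11p11.2 and 1.88 in 11q24.3, so they overlapped the range inside. Density chose the block, so nothing is read from the pooled difference. Peaks were placed in hg19 bands and genes in GRCh38 bands of the same name, whose lengths differ by at most 10% for these 4. For bands outside the block the difference reached -21.4% (11p11.12) and 20% (11q11), and it was 12.7% for 11p15.4, with 166 coding genes.

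The 143 genes of 7 hand-made lists were placed by band, and 115 of them lie in the 4 whole bands. Band 11q13.1 holds 99 of the 241 coding genes of these 4 bands and 48 of those 115 listed genes. Of 21 genes listed under transcription and chromatin, 15 lie in 11q13.1, among them RELA, MEN1, KAT5, a histone acetyltransferase, ESRRA and FOSL1, an AP-1 subunit. These 15 also count the splicing factors SF1 and SF3B2, the kinase gene RPS6KA4 and PRDX5, so the list is broader than its name. Of 26 hematopoietic and immune genes, 7 lie in 11q13.1, with RASGRP2, an activator of Rap1 in blood cells, and FERMT3, the kindlin of leukocyte integrins. Another 7 lie in 11q13.2, with UNC93B1, which carries endosomal Toll-like receptors, and TCIRG1, a subunit of the vacuolar proton pump, and 9 in 11q12.2, with CD5, CD6 and members of the MS4A family. Of 20 metabolism and stress genes, 9 lie in 11q13.2, with GSTP1, a glutathione transferase. Of 26 genes of other tissues, 11 lie in 11q12.3, with secretoglobins and SLC22A transporters. Of 19 signalling genes, 8 lie in 11q13.1 and 10 in 11q13.2, with GRK2, a receptor kinase, and PPP1CA, a catalytic subunit of protein phosphatase 1. Of 19 RNA, ribosome and housekeeping genes, 10 lie in 11q13.1, with FAU, which encodes a ribosomal protein, and CFL1, cofilin. Of 12 genes of the 11q13.3 amplicon known in carcinomas, 11 lie in 11q13.3 by the making of the list, with CCND1 and FADD, an adaptor of death receptors. The lists were drawn up from genes of this region and not tested, so the counts only say where listed genes lie and link no peak to a gene.

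Long gaps cut the block. Between members, 23 gaps over 100 kb summed to 5.34 Mb, or 44.5% of the length of the block, while the median gap was 4614 bp (14038 bp in the rest). The longest, 662 kb, lay in 11q13.4 at 70496797 to 71158844, with SHANK2 and DHCR7, an enzyme of cholesterol synthesis, as the coding genes next after CTTN in the GRCh38 order. The next, 608 kb, lay in 11q12.3 at 62649645 to 63257669, in the band of the SLC22A transporters. The third, 489.6 kb, lay in 11q13.3 at 69490391 to 69979957, in the band that holds CCND1 and the growth factor genes FGF19, FGF4 and FGF3. Where these genes lie relative to the gaps was not measured.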

How the data were processed

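CUT&Tag with a PML-RARA antibody was done on 2 replicates of NB4 cells and sequenced in pairs on a MiSeq, per the labels' protocols. Trimmomatic, Bowtie2, SAMtools, bedtools and SEACR with the build hg19 are named, without versions, per the submitters' processing notes. How SEACR set its threshold, and against what, and how the replicates were merged is not given in the sources used. The deposited list gives each peak 2 whole-number signal values, with no stated scaling to depth. The column headed width is read as the total signal and that headed peak as the maximum, since the former exceeded the length of every peak and never exceeded length times the maximum. Signals are the authors' own and were used only to describe, rank and sum peaks within this list.

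Members were taken by midpoint with pandas 2.3.3, and starts are printed as listed and may count from 0. Bands came from circlize 0.4.16, the chromosome length from GenomeInfoDb 1.38.1, 4 gene models from pyranges 0.1.4, and gene names, order and promoters from RefSeq GRCh38.p14; no hg19 annotation was used and no coordinate was converted. The run function was tested on made-up peaks with known run sizes. The merge function was tested only on peaks with no gap under its limit, which it left apart. The members, gene lists and alternatives were chosen with earlier results of these data known. Named are NEAT1, MALAT1, KCNK4 and CTTN, the 10 strongest and 10 tallest peaks, the 5 largest runs, the 3 longest gaps and the densest and emptiest bins; SYT7, KCNK7 and other sites were added after their values were seen. All 143 listed genes matched the table, 115 in the 4 whole bands, 26 in the bands that the block cuts and 2 in 11q12.1.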

Additional observations from a re-analysis of the deposited data

How the results depend on the processing

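With both replicates merged by the authors, leaving out a replicate was not possible. No paired analysis was possible because there is 1 group and no value per replicate. The share of genes with a TSS peak was not run, since no hg19 annotation was used. The ratio of peaks per Mb, 6.69, became 7.54 with only peaks at or above the list's median total and 7.59 with the block narrowed by 1 Mb at both ends; its 4 other alternatives gave 6.09 to 6.93. The densest bin held 115 peaks with bins of 1 Mb, which are wider, and 38 with only peaks at or above the median total, and lay between 64 and 65 Mb in each. The share of block peaks in runs of at least 3 was 53.4% with gaps of at most 5 kb, 84.9% with 20 kb and 48.6% with the stronger peaks alone. The ratio of median total signal to the rest, 1.18, was 1 for the maximum and turned to 0.922 for signal per base. With only peaks at or above the list's median total the ratio of median total was 1.08, and with stretches merged within 1 kb it was 1.36. The block's share of signal stayed between 48.5 and 51.1%, and the NEAT1 and MALAT1 interval held 13 or 14 peaks. The peak threshold and unknown depth limit what a gap without peaks can show.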

Other observations

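Other dense stretches of chromosome 11 were shorter. The first 4 Mb of the short arm held 166 peaks, or 41.5 per Mb, about the density of the block, with a median total signal of 5760 and a summed signal of 2059374. There the densest bin, from 0.5 to 1 Mb, held 40 peaks with a sum of 353693. In the block, the bin from 63.5 to 64 Mb held 37 peaks with a sum of 538193. Bands 11p15.5 and 11q13.3 had a median total of 5367 and 4341 per peak, and 11p15.5 had 1.36 peaks per coding gene of the GRCh38 table. In the bin from 72.5 to 73 Mb, past the far edge of the block, 28 peaks summed to 641552. No test was made of these values.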
